A study of Mus musculus with 9 samples.

Results

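The 10 genes described here encode tubulins, doublecortin-type proteins and other microtubule regulators of migrating cortical neurons. They are Dcx, Dclk1, Tubb3, Tubb2b, Tuba1a, Map1b, Map2, Mapt, Stmn1 and Pafah1b1. They were chosen by name for their known roles, with earlier results of these data known, and make up 10 of the 18820 genes in the deposited table. All 10 passed the filter on low values, as did 15069 genes in all. The RNA came from cortex taken at embryonic day 18.5 from C57BL/6J mice. There were 3 wild-type (WT) libraries, 3 libraries heterozygous for a mutation of Cyfip2 (Het) and 3 labelled as Cyfip2 knockout (KO). The labels describe neither the mutant allele nor any treatment, and whether replicates are different embryos is not stated. The p-values therefore reflect only how much the libraries differ among themselves, which may be technical. The Cyfip2 protein belongs to the WAVE complex, which turns on the assembly of branched actin.

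A newborn cortical neuron leaves the ventricular zone by extending a leading process and then pulling its nucleus after the centrosome through a cage of microtubules. Microtubules are polymers of paired alpha- and beta-tubulin, and doublecortin and the MAP proteins bind along them and stabilise them, while stathmin binds free tubulin dimers and favours disassembly. The dynein motor and its regulator Lis1 pull on these microtubules to move the nucleus. Mutations of human TUBA1A, TUBB2B, DCX and PAFAH1B1 cause lissencephaly and related malformations of the cortex, in which neurons fail to reach their layer.

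Some of these genes have near-identical copies, and this limits how far a read can be assigned to one of them. The ends of the coding sequences of 3 beta-tubulin genes are shown because they show how alike a close copy is and how a more distant relative differs. Each is the last 60 bases up to and including the stop codon, read 5′ to 3′ from GENCODE release M21 transcripts. Capitals in Tubb2a and Tubb3 mark bases that differ from the aligned Tubb2b sequence or have no partner in it.
Tubb2b: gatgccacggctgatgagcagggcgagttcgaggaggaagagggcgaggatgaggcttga
Tubb2a: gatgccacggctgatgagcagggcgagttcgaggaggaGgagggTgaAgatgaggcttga
Tubb3: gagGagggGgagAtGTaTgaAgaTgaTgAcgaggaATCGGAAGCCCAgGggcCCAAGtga
Tubb2a differed from Tubb2b at 3 of these 60 bases, and Tubb3 at 28. Over the whole coding sequence, Tuba1a was 98.3% identical to Tuba1b and 97.1% identical to Tuba1c, and Tubb2b was 96.5% identical to Tubb2a but only 83.6% identical to Tubb3. In GRCm38 coordinates the printed sequences of Tubb2b and Tubb2a lie on the minus strand at chr13:34127471-34127530 and chr13:34074468-34074527, and that of Tubb3 lies on the plus strand at chr8:123421623-123421682.

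Of the distinct 31-base stretches in Tuba1a transcripts, only 23.0% occurred in no other annotated gene, since most lay in Tuba1b, Tuba1c or pseudogene copies. For Tubb2b the unique share was 56.9% and for Stmn1 it was 77.6%, with a processed pseudogene, Gm11223, holding 19.9% of the Stmn1 stretches. The unique share was 96.8% for Tubb3 and Pafah1b1 and 99.6% for Dcx, and 0% of the stretches of Dclk1, Map1b, Map2 and Mapt were shared. Values of Tuba1a and Tubb2b are therefore uncertain where reads could be split between copies. Exons of Tuba1a also overlap those of Gm49450, a protein-coding model on the same strand, by 473 bases, and this model was not analysed here. Map2 and Dclk1 overlap antisense models by 124 and 87 bases, and Stmn1 overlaps a same-strand miRNA model by 66. The library kit keeps strand, but no source used here says whether counting did.

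The members were among the most abundant RNAs of these libraries. Tuba1a had the highest mean value of all 18820 genes, Tubb2b was at rank 4, Tubb3 at 14, Map1b at 15, Mapt at 19, Dcx at 21, Stmn1 at 25 and Map2 at 31. Dclk1 stood at rank 132 and Pafah1b1 at rank 241. These values are not divided by length. Of the summed value of a WT library the 10 genes together took 3.30% ± 0.05, while in Het they took 3.25% ± 0.26 and among KO libraries 3.20% ± 0.22 (± gives the SD of 3 libraries here and below unless stated). Tuba1a alone took 1.16% to 1.43% of a library.

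The tubulins form the microtubule itself. Tuba1a (ENSMUSG00000072235, chr15:98949837-98953703, minus strand), the main alpha-tubulin of developing neurons, had normalized counts of 506398, 479167 and 473999 in WT replicates 1 to 3. It was at 429862, 464122 and 550943 in Het, and at 419563, 424977 and 512139 in KO. The genotypes overlapped, with the highest value of all in Het replicate 3 and the lowest in KO replicate 1. Between KO and WT the log2 fold change was -0.11 ± 0.15 (limma SE), which puts KO at 92.6% of WT with a 95% interval from 73.7% to 116.4%.

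Tubb2b (ENSMUSG00000045136, chr13:34126748-34130466, minus strand), a beta-tubulin of migrating neurons and radial glia, was at 279712, 252107 and 253025 in WT. Its values were 232901, 266612 and 306309 in Het and 233371, 253752 and 273011 in KO. The Het libraries alone spanned the values of all other libraries. Tubb3 (ENSMUSG00000062380, chr8:123411424-123422015, plus strand), the neuron-specific beta-tubulin also known as TuJ1, was at 96133, 94173 and 95079 in WT. It was at 89529, 96557 and 113073 in Het, and at 83635, 87880 and 104195 in KO. WT libraries lay close together for Tubb3, and the Het and KO libraries spread on both sides of them. KO to WT log2 fold changes were -0.05 ± 0.13 for Tubb2b and -0.06 ± 0.11 for Tubb3.

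**Figure D1:**
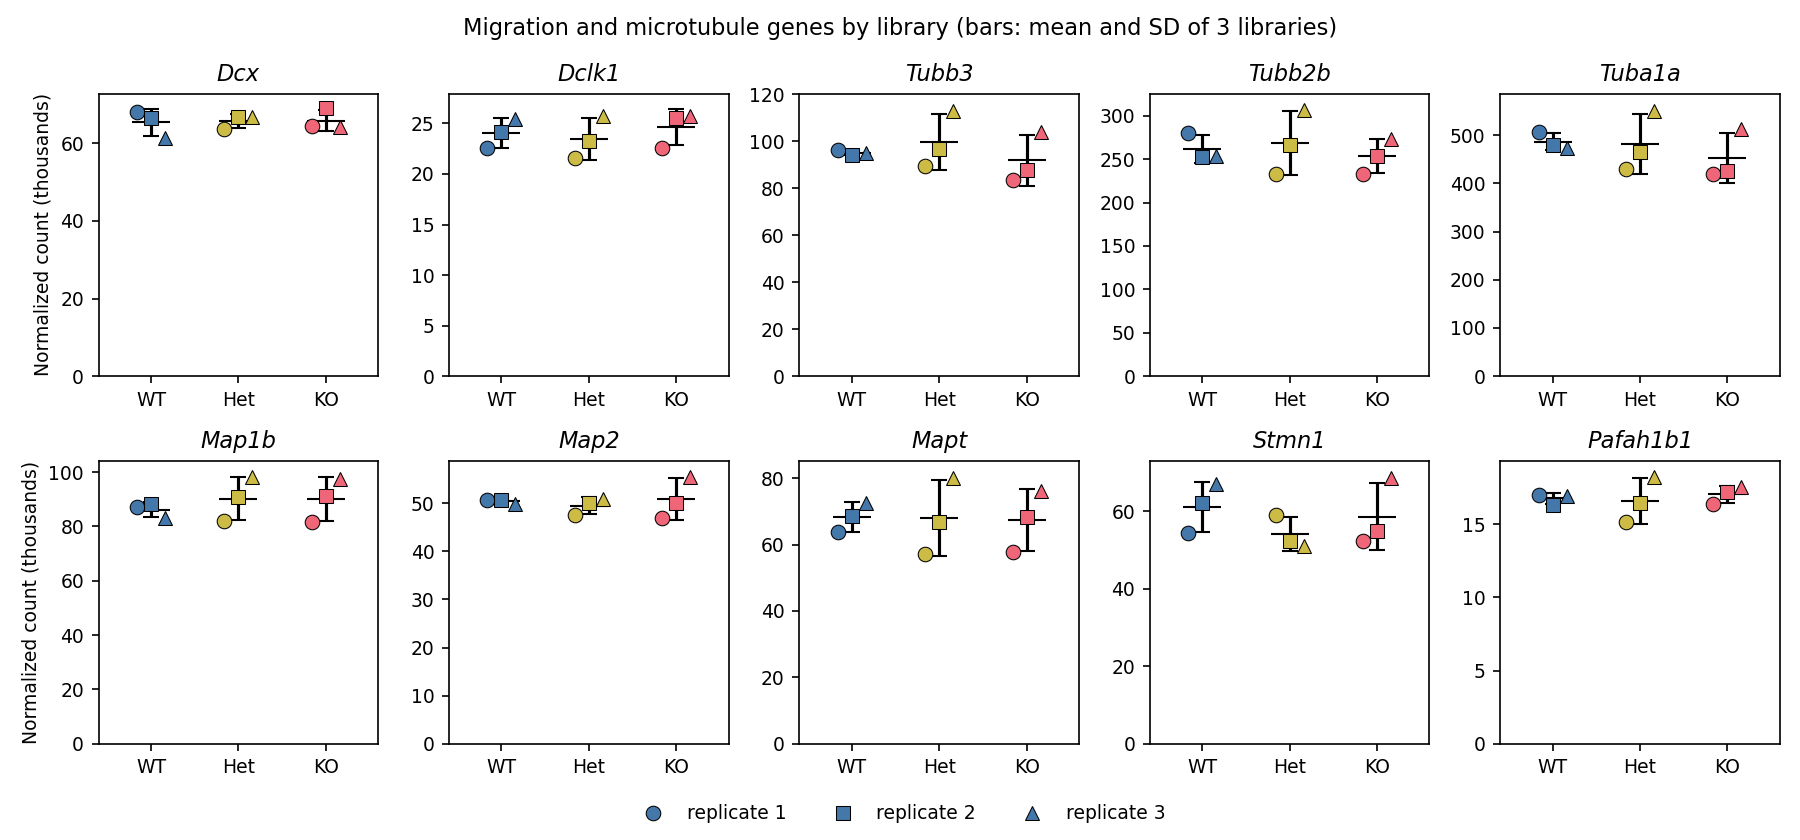
Normalized counts of the 10 genes, scaled as each axis states, in each of the 9 libraries. Symbols are libraries, and black bars are the mean and SD of 3 libraries. In every panel the values of the 3 genotypes overlap, from Tuba1a at 419563 to 550943 down to Pafah1b1 at 15128 to 18239.

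Doublecortin and its relative bind between protofilaments of the microtubule. Dcx (ENSMUSG00000031285, chrX:143855842-143933311, minus strand) was at 68137, 66599 and 61374 in WT, at 63735, 66853 and 66672 in Het, and at 64331, 68951 and 64055 in KO. It varied least of the 10 genes, with the lowest library at 89.0% of the highest. Dcx is X-linked, and 3 libraries, Het replicate 1 and KO replicates 1 and 2, lacked RNA of the Y-linked gene Ddx3y. Dcx in those 3 libraries lay between 63735 and 68951 and overlapped the others. Its KO to WT log2 fold change was 0.01 ± 0.07, with KO at 100.7% of WT and a 95% interval from 90.4% to 112.0%. Dclk1 (ENSMUSG00000027797, chr3:55242364-55539068, plus strand), a doublecortin-like kinase, was at 22536, 24190 and 25415 in WT, at 21559, 23233 and 25690 in Het, and at 22565, 25557 and 25706 in KO. Its KO to WT log2 fold change was 0.03 ± 0.08.

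The MAP proteins line the microtubules of growing axons and dendrites. Map1b (ENSMUSG00000052727, chr13:99421446-99516540, minus strand), enriched in growing axons, was at 86976, 88409 and 82982 in WT, at 81972, 90774 and 97986 in Het, and at 81571, 91171 and 97561 in KO. Map2 (ENSMUSG00000015222, chr1:66175273-66442583, plus strand), the dendritic MAP, was at 50772, 50677 and 49805 in WT, at 47647, 50164 and 50832 in Het, and at 46989, 49981 and 55556 in KO. Mapt (ENSMUSG00000018411, chr11:104231390-104332090, plus strand), which encodes the axonal protein tau, was at 63743, 68532 and 72594 in WT, at 57110, 66694 and 79937 in Het, and at 57706, 68393 and 76042 in KO. Mapt had the widest range of the 10 genes, with its lowest library at 71.4% of its highest, and both extremes were Het libraries. KO to WT log2 fold changes were 0.06 ± 0.10 for Map1b, 0.01 ± 0.07 for Map2 and -0.03 ± 0.14 for Mapt.

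Stmn1 (ENSMUSG00000028832, chr4:134468320-134473843, plus strand) encodes stathmin. It was at 54434, 62075 and 67209 in WT, at 59130, 52291 and 51012 in Het, and at 52345, 55005 and 68619 in KO. Unlike the tubulins it was lowest, not highest, in Het replicate 3. Pafah1b1 (ENSMUSG00000020745, chr11:74673949-74724670, minus strand) encodes Lis1. It was at 16992, 16340 and 16953 in WT, at 15128, 16444 and 18239 in Het, and at 16403, 17201 and 17530 in KO. The KO to WT log2 fold changes were -0.07 ± 0.12 for Stmn1 and 0.02 ± 0.07 for Pafah1b1.

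KO libraries were set against WT to see whether RNA of these genes differed where both copies of Cyfip2 are labelled as mutant. Cyfip2 RNA itself was lower but far from absent: its values were 10169 to 11174 in WT, 8969 to 9882 in Het and 7522 to 8255 in KO, so the KO mean was 74.7% of the WT mean and the Het mean 90.4%. Whether the RNA counted in KO includes the mutated part of the gene cannot be read from gene totals. None of the 10 differed between the genotypes beyond the spread of the libraries. In bulk tissue, fewer neurons and less RNA per neuron cannot be told apart in any of these values. The members' log2 fold changes ran from -0.11 for Tuba1a to 0.06 for Map1b, 5 positive and 5 negative, with a median of -0.01. The median over all 15069 genes was -0.004, and 48.4% of them were positive. limma called 0 of 10 members at an adjusted p under 0.05, and 0 of 10 had an unadjusted p under 0.05. The background was 0% of all genes called, with 178 genes (1.18%) at an unadjusted p under 0.05. The smallest unadjusted p of a member, by limma, was 0.465 for Tuba1a (adjusted p = 0.9998). In 0 of 10 members did the KO and WT libraries separate without overlap, where 6.46% of all genes did. The 95% intervals of all 10 members lay between -0.44 and 0.29. The interval half-width ran from 0.15 for Dcx to 0.33 for Tuba1a on the log2 scale. These intervals are not adjusted for the 15069 genes tested. Differences of that size or smaller could not be called with these libraries, and larger ones could be missed too. The half-widths are thus not a limit above which a difference would be called. Cyfip2 itself was not called, though its KO and WT values did not overlap and its KO mean was 74.7% of WT. The smallest limma adjusted p of any gene was 0.5885.

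**Figure D2:**
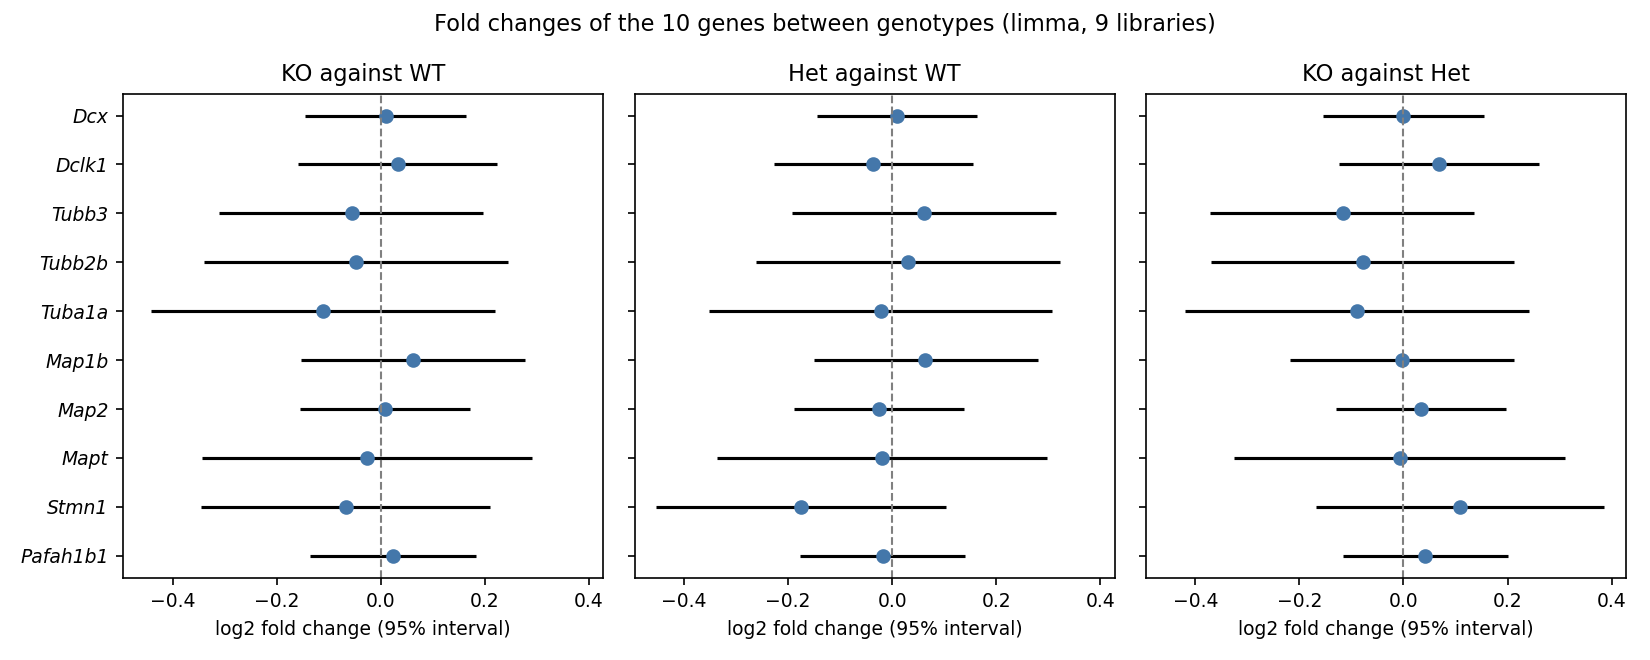
log2 fold changes (points) with 95% limma intervals (lines) of the 10 genes for KO against WT, Het against WT and KO against Het. Every interval includes 0, and Tuba1a has the widest, from -0.44 to 0.22 for KO against WT.

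Het libraries were set against WT to see what 1 mutant copy does. The 10 members had log2 fold changes from -0.17 for Stmn1 to 0.06 for Map1b, 4 positive and 6 negative. Their median was -0.02 against -0.01 over all genes. Stmn1 in Het was at 88.6% of WT, with a 95% interval from 73.0% to 107.4% and an unadjusted limma p of 0.186 (adjusted p = 0.9998). The next in size were Map1b (0.06 ± 0.10) and Tubb3 (0.06 ± 0.11). limma called 0 of 10 members, beside 0% of all genes called and 242 genes (1.61%) at an unadjusted p under 0.05. No member's groups separated, where 6.67% of all genes had groups that did.

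KO and Het were compared to test the mutant genotypes against each other. The comparison shares its libraries with the 2 above, so its values are not separate evidence. Members ran from -0.12 ± 0.11 for Tubb3 to 0.11 ± 0.12 for Stmn1, with a median of -0.001 against 0.002 over all genes. limma called 0 of 10 members, beside 0% of all genes called and 541 genes (3.59%) at an unadjusted p under 0.05. The smallest adjusted p of a member was 0.943. Same-numbered Het and KO libraries deviated together for numbers 1 and 3 (correlations of 0.45 and 0.47) but little for number 2 (0.10). Within these 3 pairs, which the labels do not state, Tubb3 was lower in KO in 3 of 3 (-0.10, -0.14 and -0.12 on the log2 scale). Tuba1a was also lower in KO in 3 of 3 pairs (-0.035, -0.127 and -0.105). Dclk1 was higher in 3 of 3, but by only 0.001 in pair 3 (0.066 and 0.138 in pairs 1 and 2). The other members had mixed signs. How many of all genes keep 1 sign over the 3 pairs was not counted, so no pattern can be read from these members. With the replicate number as a block in the Het and KO libraries alone, a fit added after the data were seen, Tubb3 was at -0.12 ± 0.05 (limma adjusted p = 0.550), and 0 of 10 members and 0 of all genes were called, with 1298 genes at an unadjusted p under 0.05. Without the 4 libraries with olfactory bulb RNA, described below, Stmn1 was at 0.41 ± 0.12 in place of 0.11, from 2 Het libraries and 1 KO library (limma adjusted p = 0.959). No member's groups separated, where 7.82% of all genes had groups that did.

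The 10 genes did vary between libraries, and most of them did so together. Relative to the WT mean, the median of the 10 genes on the log2 scale was 0.02, 0.01 and -0.01 in WT replicates 1 to 3, -0.12, -0.02 and 0.15 in the Het replicates, and -0.13, -0.004 and 0.12 in the KO replicates. Het replicate 3 held the highest value of 6 of the 10 genes and KO replicate 3 of 3, while Het replicate 1 and KO replicate 1 each held the lowest value of 4. In both Het replicate 1 and KO replicate 1, 9 of 10 genes were among the 3 lowest libraries. The exceptions to the pattern were Dcx, which was highest in KO replicate 2 and lowest in WT replicate 3, and Stmn1, which was lowest in Het replicate 3. The median SD of the 10 genes on the log2 scale was 0.07 in WT, 0.13 in Het and 0.13 in KO. For the 500 most abundant genes it was 0.07, 0.10 and 0.09, and for all genes tested 0.11, 0.14 and 0.15.

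Some markers of other cells and tissues moved in part with this order. The median of 11 radial glia and progenitor markers, relative to the WT mean, was -0.38 in Het replicate 3 and -0.58 in KO replicate 3, the libraries high in tubulin RNA. It was 0.17 in Het replicate 1 and 0.22 in KO replicate 1, and ran from -0.21 to 0.20 in the other 5. The 12 meningeal fibroblast markers were highest in Het replicate 1 (0.72) and KO replicate 1 (0.88) and at -4.75 in Het replicate 3, where Col1a1 was at 87.2 and Dcn at 23.9. In KO replicate 3, the other library high in the 10 genes, they were at -0.02, above WT replicates 1 (-0.21) and 2 (-0.07). The 6 erythroid markers were also highest in those libraries, where the haemoglobin gene Hbb-bs was at 26517 (Het replicate 1) and 30474 (KO replicate 1) against 8460 to 20305 in the other 7. The erythroid median was 0.32 in Het replicate 3, above both WT replicates 2 and 3 and KO replicates 2 and 3. Choroid plexus RNA followed another order, with Ttr at 11029 in Het replicate 2 and at 20.7 in Het replicate 3. The 10 pan-neuronal markers lay between -0.21, in Het replicate 1, and 0.07, and did not follow the order in KO, at 0.02 in replicate 1 and -0.01 in replicate 3. Cdhr1, a mitral cell marker of the olfactory bulb, was between 2138 and 3436 in WT replicate 3, Het replicate 1 and KO replicates 1 and 2, and between 21.8 and 53.1 in the other 5. The 4 libraries with olfactory bulb RNA include both low ones but also WT replicate 3 and KO replicate 2, whose member medians were -0.01 and -0.004. The median of 11 olfactory bulb markers was lowest in Het replicate 3 (-1.03) and KO replicate 3 (-0.89), the libraries high in the 10 genes. It was -0.34 and -0.26 in WT replicates 1 and 2 and -0.25 in Het replicate 2. In the 4 libraries with olfactory bulb RNA it ran from 0.49 to 0.88. The part of tissue makeup in the order of the libraries was not tested.

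**Figure D3:**
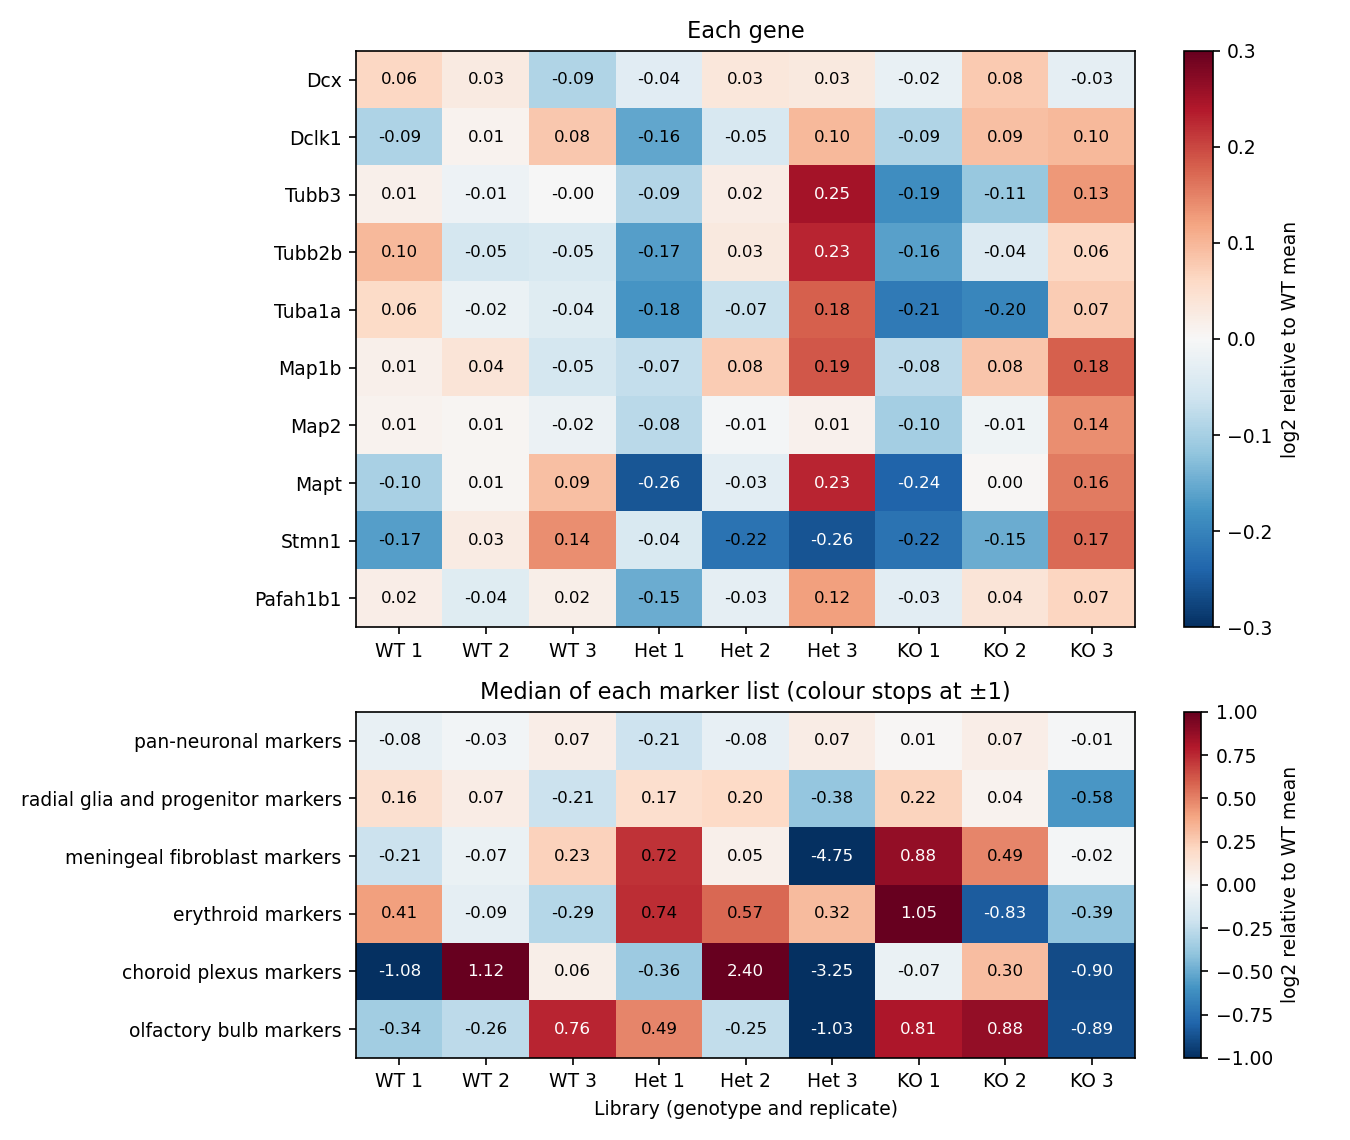
log2 values of the 10 genes (top) and medians of 6 marker lists (bottom) in each library, relative to the mean of the 3 WT libraries. Het replicate 3 and KO replicate 3 are high in most of the 10 genes and low in progenitor markers (-0.38 and -0.58), and Het replicate 1 and KO replicate 1 are low in most of the 10 genes.

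The main median of the members between KO and WT, -0.01, was close to 0, and its sign was not stable. It was 0.002 with upper-quartile rescaling, 0.001 without WT replicate 3 and 0.02 with Cdhr1 as a covariate. Without the 4 libraries with olfactory bulb RNA, which leaves 2 WT, 2 Het and 1 KO, the median log2 fold change of the members between KO and WT was 0.13. That fit assumes the lone KO library varies like the other groups. With sex, read from Y-linked RNA, as a covariate it was 0.11. The 4 libraries left out include every library without Y-linked RNA. Leaving them out therefore removes sex and olfactory bulb RNA together, and these settings are not separate checks. With sex as a covariate limma called 0 of 10 members. Only 1 KO library had Y-linked RNA, so sex and genotype are only partly separable.

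Levels can be compared between genes only per length, here the normalized count per kb of the longest protein-coding transcript. The order was Tuba1a (262598), Tubb2b (119707), Stmn1 (54730), Tubb3 (51169), Mapt (12919), Map2 (8033), Map1b (7522), Dcx (7233), Dclk1 (3021) and Pafah1b1 (2896), as means over 9 libraries. Over libraries, Tuba1a ranged from 232703 to 305570 per kb and did not overlap Tubb2b, which ranged from 106737 to 140380. The ranges of Stmn1 and Tubb3 overlapped, as did those of Map2 and Map1b, Map1b and Dcx, and Dclk1 and Pafah1b1. Tubb3 was above Mapt, Mapt above Map2, and Dcx above Dclk1 in every library. With the median in place of the longest transcript length, a choice made after the data were seen, Mapt was at 46979 per kb and Map2 at 25845, Tubb3 passed Stmn1, and Dcx passed Map1b. The other ranks were kept.

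The mean shares of the main tubulin genes were close between genotypes in these libraries. Alpha-tubulin RNA is here the total of Tuba1a, Tuba1b, Tuba1c, Tuba4a and Tuba8. Beta-tubulin RNA is that of Tubb1, Tubb2a, Tubb2b, Tubb3, Tubb4a, Tubb4b, Tubb5 and Tubb6. Per length, Tuba1a made up 92.8% ± 0.26 of alpha-tubulin RNA in WT libraries, 92.7% ± 1.1 in Het libraries and 92.6% ± 0.90 in KO libraries. The SD does not cover how shared reads were split, and 77.0% of Tuba1a and 68.9% of Tuba1b 31-base stretches occur in other genes. Its share was lowest in Het replicate 1 (91.6%) and KO replicate 1 (91.8%) and highest in Het replicate 3 (93.9%) and KO replicate 3 (93.6%). Nearly all of the rest was Tuba1b, the widely expressed copy, at 6.00% to 8.07% over the 9 libraries. Minor genes varied more, with Tuba1c at 0.0988% to 0.259% of alpha-tubulin RNA and Tubb6 at 0.0291% to 0.185% of beta-tubulin RNA. Tuba1b had normalized counts of 35156 ± 2236 in WT and 33390 ± 1612 in KO, and Tuba1c had 1002 ± 212 and 916 ± 264. Among beta-tubulins, Tubb2b made up 46.6% ± 1.4 in WT, 46.4% ± 0.84 in Het and 46.5% ± 0.39 in KO. Tubb3 made up 19.8% ± 0.38, 20.1% ± 0.29 and 19.7% ± 0.83. Tubb5, a widely expressed beta-tubulin, held 19.3% to 21.5% of the total over the 9 libraries, and Tubb2a, the close copy of Tubb2b, 8.45% to 10.7%. The ranges of the 3 genotypes overlapped for the shares of Tuba1a, Tubb2b and Tubb3. These shares use the longest protein-coding transcript, and those of the beta-tubulins depend on that choice. With the median length, the WT means were 39.1% for Tubb2b, 23.5% for Tubb3 and 25.8% for Tubb5, which then stood above Tubb3. Tuba1a was then at 92.7% in WT. Summing Tuba1a with Tuba1b and Tuba1c, which removes the split among these 3 genes but not that with pseudogene copies, gave a KO to WT log2 fold change of -0.11, and summing Tubb2b with Tubb2a gave -0.05.

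**Figure D4:**
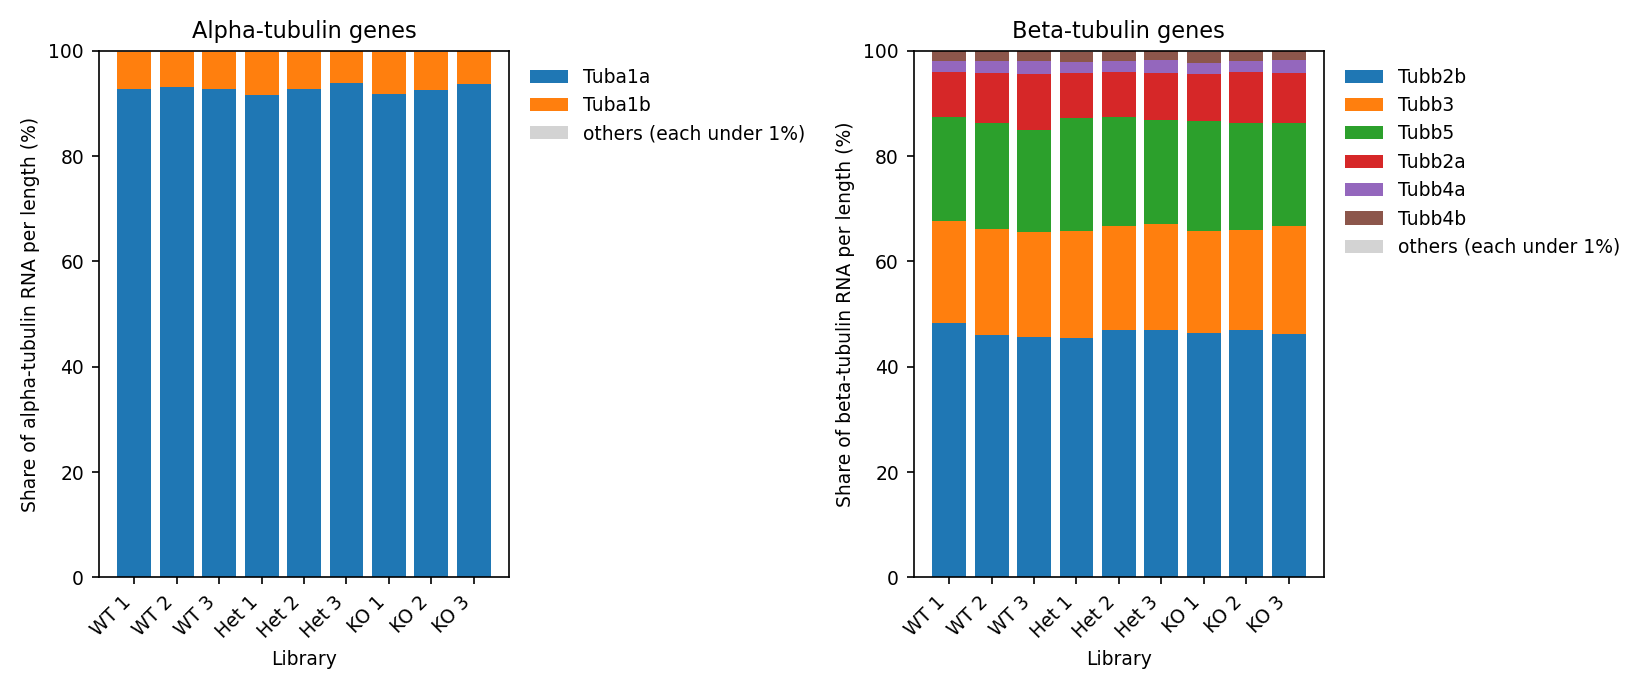
Share of alpha-tubulin (left) and beta-tubulin (right) RNA, in percent per transcript length, held by each gene in each library. The length is that of the longest protein-coding transcript, and the totals are those of the alpha- and beta-tubulin genes named in the text. Tuba1a holds 91.6% to 93.9% of alpha-tubulin RNA and Tubb2b 45.4% to 48.3% of beta-tubulin RNA in all 9 libraries. With the median transcript length, Tubb2b holds 37.7% to 40.6%.

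The wider machinery was described with 10 further lists holding 132 genes, of which 130 were tested. limma called 0 of 130 in any of the 3 comparisons. For KO against WT, 47 of 130 log2 fold changes were positive, with a median of -0.02, where 48.4% of all genes were positive. In that comparison, 1 of 130 had an unadjusted p under 0.05, and 9 of 130 (6.92%) had groups that did not overlap, against 6.46% of all genes. That 1 gene was the dynactin subunit gene Dctn3, at 2272 ± 69.5 in WT, 2110 ± 193 in Het and 2020 ± 79.8 in KO, with a log2 fold change of -0.17 ± 0.07 (adjusted p = 0.9998 by limma).

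In the Lis1, dynein and dynactin list, 0 of 22 genes passed, and the median log2 fold change for KO against WT was -0.03. In the tubulin folding and modification list 0 of 16 passed, with a median of -0.06, and the tubulin folding cofactor gene Tbcd had the smallest p, at 0.13 ± 0.06. The list of kinesin-family and kinesin light chain genes had 0 of 19 passing and a median of -0.03. In it the neuronal kinesin gene Kif21b was at -0.07 ± 0.07. The list of microtubule end, severing and minus-end proteins had 0 of 17 passing and a median of 0.02.

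Of 13 genes of Reelin and Cdk5 signalling, which tells neurons where to stop, 0 passed. The median was -0.02, and Dab1, the adaptor of the Reelin receptors, was at -0.15 ± 0.12. Of 14 actin-side migration genes 0 passed, with a median of 0.02 and Filip1 at 0.44 ± 0.26, from low counts of 159 ± 13.2 in WT and 218 ± 39.8 in KO. The 12 other tubulins tested had 0 passing and a median of -0.04, with the gamma-tubulin gene Tubg1 at -0.09 ± 0.06. The 10 other structural MAPs had 0 passing and a median of 0.03, with Map7 at 0.39 ± 0.30. The 3 other stathmins had 0 passing and a median of -0.001, with Stmn2 at -0.06 ± 0.15. The 4 doublecortin relatives had 0 passing and a median of 0.35, from only 4 genes. Dclk3 among them was at 0.67 ± 0.53, from counts of 124 ± 72.5 in WT and 200 ± 99.7 in KO.

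**Figure D5:**
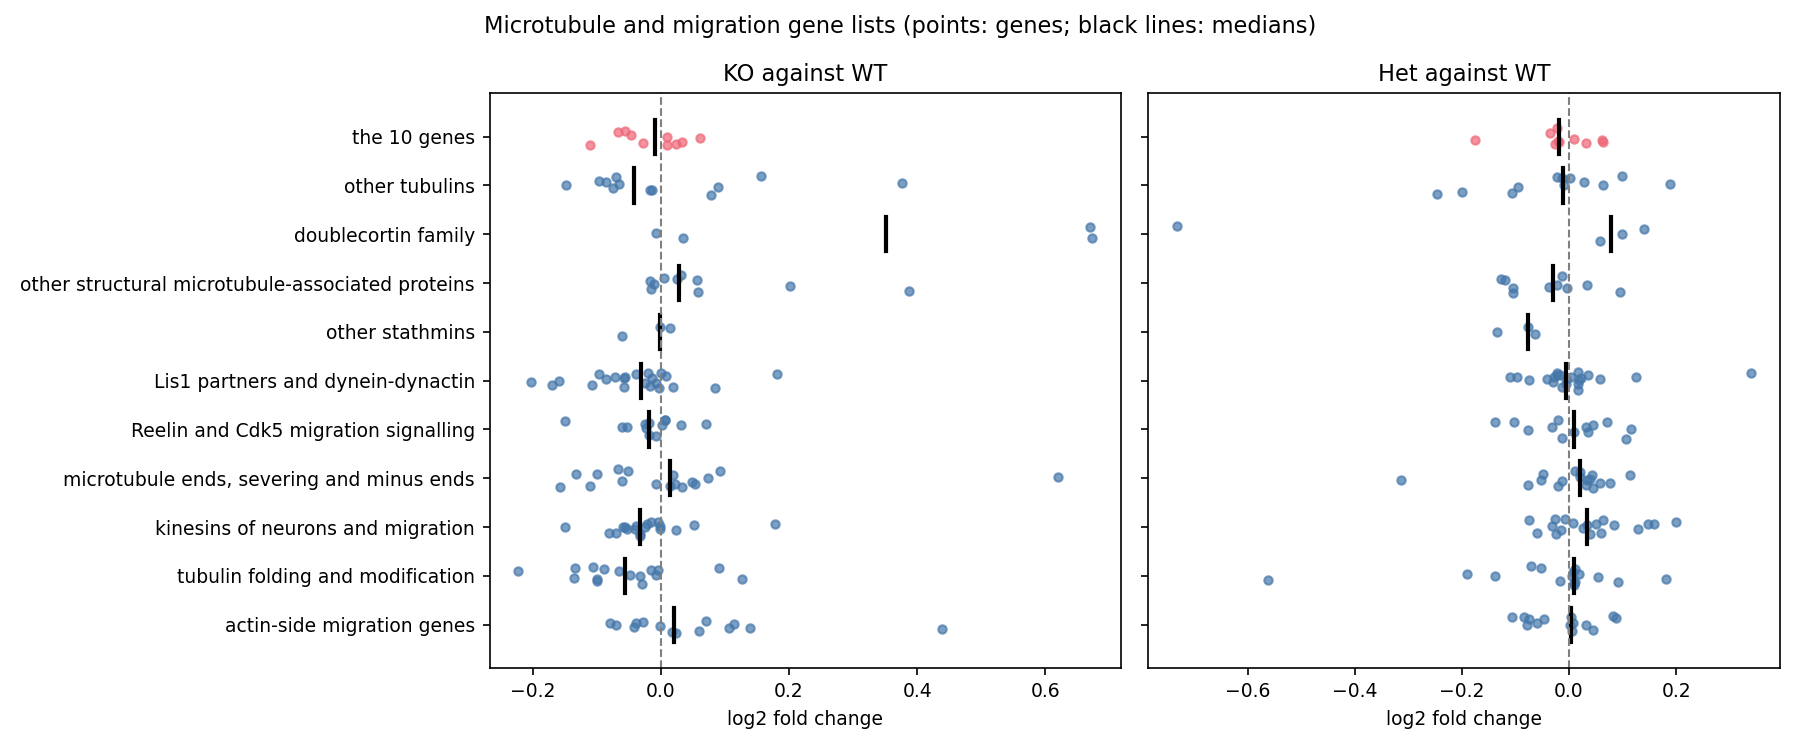
log2 fold changes of the 10 genes (red) and of the genes in 10 further lists (blue) for KO against WT and Het against WT, with list medians as black lines. The medians for KO against WT lie between -0.06 and 0.03 apart from the doublecortin family, at 0.35 from 4 genes.

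The 5 tested genes whose values over the 9 libraries were most like the median profile of the 10 members were Fut9, Zfp277, Cdc42bpa, Wdr47 and Zfp40. Likeness was the correlation over 9 libraries, given as a description, and Pearson's r ran from 0.98 to 0.99. The genes were picked as the highest of all those tested, and all points share the same 9 libraries. Wdr47, which encodes a WD-repeat protein of neurons, was at 7592 in KO replicate 1 and 9986 in Het replicate 3. Fut9, a fucosyltransferase gene, was at 2904 and 4221 in the same 2 libraries.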

How the data were processed

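The members and gene lists were chosen with earlier results of these data known. The deposited values are a signal, gene counts that the authors divided by size factors, as the file name and the values show. Salmon 0.11.2 is named, with GRCm38, DESeq2 1.19.11 and R 3.6.0, in the submitters' processing notes, which give no role or order. TruSeq Stranded mRNA libraries were made, per the labels' protocols. Approximate depth, from the step of low values worth about 1 read, was 29.5 to 54.4 M reads per library. Whole reads could not be recovered (60.9% to 78.3% of values below 6 lay within 0.1 of a whole step), so no count test was used.

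The scale was log2(value + 1), which understates the change of low genes. The filter, a mean value of 10 or more, kept 15069 genes. limma 3.58.1 in R 4.3.3 (trend, two-sided) fitted 1 mean per genotype over all 9 libraries, with Benjamini-Hochberg adjustment over all genes tested, threshold 0.05. The fit was tested on simulated data: for KO against WT, with 15069 genes, it called 36% of 50 genes changed by 0.5 on the log2 scale, 70% of 50 changed by 1, 78% of 50 changed by -1, 80% of 50 changed by 2, and 0.047% of unchanged genes. All these changes were present at once, which eases the adjusted threshold, and noise was drawn independently for each gene and library. Real libraries had correlated deviations and no gene called, so these rates do not carry over to them. Same-numbered Het and KO libraries correlated at 0.10 to 0.47 in their deviations from the group means, and the numbers were taken to pair these genotypes. For number 2 the pairing is not borne out. Het replicate 2 correlated at 0.104 with KO replicate 2 but at 0.146 with KO replicate 1. The Het and KO libraries numbered 1, and those numbered 3, also matched in Y-linked RNA and Cdhr1, while those numbered 2 differed in both. The part of these in the correlations was not tested. The pairing comes from the data, not the labels, and does not hold for WT. An exact permutation test of 3 against 3 cannot go below 0.10 and was not used. Symbols came from GENCODE M21, which matched 18783 of 18820 gene IDs. The named genes are the 10 members, the tubulin copies that share their reads, the gene with the smallest p for KO against WT in each list, since no list gene passed (1 such gene is not reported here), and the 5 most alike genes. Tubb5, marker genes and Cyfip2 were added after their values were seen. Alternatives were other scalings, pseudocounts, filters, variance models and covariates, the replicate block, and leaving out libraries.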

Additional observations from a re-analysis of the deposited data

How the results depend on the processing

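limma called 0 of 10 members in every comparison under 13 alternatives run on all members and with each of the 9 libraries left out in turn, and the smallest adjusted p of a member was 0.547. Sums of near-identical paralogs were run for Tuba1a and Tubb2b only, and the block on Het and KO alone for KO against Het only, with 0 called. Of 676 member values under alternatives, 85 had the other sign than the main value and 16 of these had moved by more than the main standard error. For KO against WT these were, without the libraries with olfactory bulb RNA, Dcx at -0.073, Tubb3 at 0.131, Tuba1a at 0.056, Mapt at 0.20 and Stmn1 at 0.24. With sex as a covariate they were Tubb3 at 0.11, Tubb2b at 0.11, Tuba1a at 0.06 and Mapt at 0.18. With sex and Cdhr1 as covariates, added after the data were seen, they were Tubb3 at 0.11, Mapt at 0.24 and Stmn1 at 0.061. For Het against WT they were Dclk1 at 0.065, Mapt at 0.14 and Pafah1b1 at 0.056 without those libraries, and Mapt at 0.12 with both covariates. Among values that kept their sign, Stmn1 for KO against Het went from 0.11 to 0.41 without those libraries, the 1 member value with an unadjusted limma p under 0.05. The cause was not tested. The median member value for KO against WT was 0.11, 0.13 and 0.10 with sex, without those libraries and with both covariates. With Cdhr1 alone as a covariate it was 0.02. Those libraries include every library without Y-linked RNA, so leaving them out is not separate from the sex covariate.

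The count of all genes called was 0 in each main comparison and 1 for Het against WT and for KO against Het when only the compared groups were fitted. Leaving out single libraries gave 0 to 1 in each comparison. For KO against WT it was 1, Gm3650, without KO replicate 3. For Het against WT it was 1 without WT replicate 1, Het replicate 1 or KO replicate 3, and for KO against Het 1 without WT replicate 1 or Het replicate 1. These genes, Gm3650, Lenep and Gm14288, were seen only after the fits. Quantile normalization gives Tuba1a, the most abundant gene in each library, the same value everywhere and so cannot measure it. With the replicate block the count was 0 and the member median for KO against WT stayed at -0.01. With the block on Het and KO libraries alone the count was 0 for KO against Het. The block changed no call. Over all genotypes, same-numbered libraries correlated at -0.07 to 0.47, so the numbers do not pair WT with the others.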

Other observations

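Some list genes had unadjusted p-values under 0.05 in comparisons other than KO against WT, none passing adjustment by limma. For KO against Het these included Kif21b, at 42850 ± 1200 (SD of 3 libraries) in Het and 36580 ± 1760 in KO, a log2 fold change of -0.23 ± 0.07 (limma adjusted p = 0.942). Tubg1 was at 1963 ± 88.2 in Het and 1770 ± 63.5 in KO, a log2 fold change of -0.15 ± 0.06. In all, 4 of 130 list genes were under 0.05 in that comparison, where 3.59% of all genes were. For Het against WT 3 of 130 were, where 1.61% of all genes were, among them Tbcd at 3097 ± 232 in WT and 3506 ± 139 in Het, a log2 fold change of 0.18 ± 0.06.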
